A study of Mus musculus with 36 samples.

Results

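The comparison described here concerns the difference in P-body enrichment between naive and primed mouse embryonic stem (ES) cells. P-body enrichment of a gene is its log2 fold change (log2 FC) of purified P-bodies over cytoplasm, and the difference is the naive value minus the primed value, so that a positive difference means higher enrichment in naive cells. It rests on 8 of the 36 samples of the series, chosen by their labels alone: 2 libraries each of naive P-bodies, naive cytoplasm, primed P-bodies and primed cytoplasm. The question was which RNAs were held in P-bodies to a different extent in the earlier and the later state of pluripotency.

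P-bodies are membraneless cytoplasmic condensates in which repressed mRNAs gather with decapping, deadenylation and microRNA silencing factors, among them the RNA helicase DDX6. Many mRNAs in P-bodies encode regulators such as transcription and chromatin factors, while mRNAs for ribosomal and mitochondrial proteins are mostly translated outside them. Naive ES cells resemble the preimplantation epiblast and depend on LIF signaling with the ERK pathway blocked. Primed cells resemble the postimplantation epiblast, depend on FGF and activin, and switch on genes such as Fgf5, Otx2 and Dnmt3b while losing Klf4, Esrrb and Zfp42.

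The methods of the study name the mouse ES cells as v6.5, a C57BL/6 × 129S4Sv/Jae hybrid line, while its list of cell lines names KH2, and the labels of these libraries do not settle which was used. The cells carried a lentiviral construct in which the EF1a promoter drives GFP-tagged LSM14A, a P-body protein. Naive cells were cultured without serum in N2B27 medium with LIF, the MEK inhibitor PD0325901 and the GSK3 inhibitor CHIR99021. Primed cells were derived from the naive cells in medium with activin A, bFGF and knockout serum replacement on Matrigel, so that the states differ in culture medium and substrate as well as in identity. The cytoplasm sample was the pellet of a centrifuged post-nuclear lysate, resuspended in lysis buffer, without the soluble supernatant. P-bodies were sorted from it as GFP-positive particles, so the cytoplasm sample still holds P-bodies. A fold change of P-body over cytoplasm therefore compares a purified fraction with a mixture that contains it. Both states carried the construct. The study calls its replicates biologically independent, the labels do not say whether these were separate cultures, and the p-values measure the spread between these libraries.

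The libraries held 6769727 to 12772173 reads assigned to genes, with the primed cytoplasm lowest at 6769727 and 8019404. No pair of replicates agreed within counting error (chi-square over its degrees of freedom 1.78 to 28, genes with at least 10 reads in the pair). The pair of naive cytoplasm libraries stood farthest apart. Over 9918 genes, the standard deviation (SD) of the log2 difference between replicates was 0.44 there, against 0.14 in both P-body pairs and 0.221 in the primed cytoplasm. Levels are given as CPM, reads relative to the TMM-scaled size of each library. The labels held against marker genes: the summed level of 8 naive markers was 2480 to 2700 CPM in the naive libraries and 249 to 309 CPM in the primed ones, and that of 8 primed markers was 49.9 to 115 CPM and 487 to 690 CPM. Markers of other cell types also moved with the state. The summed level of 11 tested primitive endoderm markers was 21.9 to 52.0 CPM in naive libraries, 110 to 115 CPM in primed P-bodies and 315 to 361 CPM in primed cytoplasm, where Cubn reached 51.5 and 38.3 CPM. That of 6 tested fibroblast or feeder markers was 1.16 to 3.15 CPM in naive libraries and 34.2 to 76.1 CPM in primed ones, most of it from Acta2, while Thy1 and Dcn stayed at or under 1.95 CPM in every library. Summed levels of trophectoderm markers were 93.5 to 214 CPM in naive and 56.0 to 73.6 CPM in primed libraries, those of neural markers 44.9 to 75.5 CPM and 68.1 to 153 CPM, and those of mesoderm markers 9.28 to 14.3 CPM over all 8. The part of such cells in the differences was not tested, and in bulk samples fewer cells of a type and less RNA per cell cannot be told apart.

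Enrichment differed between the states for 4349 of 17199 tested genes, or 25.3%, at an adjusted p under 0.05 in the quasi-likelihood test of edgeR. It was higher in naive cells for 2389 genes (13.9%) and higher in primed cells for 1960 genes (11.4%). Among genes with a mean of at least 10 CPM, the 2 shares were 21.5% and 16.4%. The first set had a median log2 difference of 1.08 and the second one of −0.92, and 312 and 247 of them, respectively, exceeded 2 in absolute size. The 4 possible naive P-body to cytoplasm ratios did not overlap the 4 primed ratios for 4337 of the 4349 called genes, but this held for 55.2% of all tested genes as well. The split between directions depended on the scaling and on single libraries: 54.9% of the calls were higher in naive cells here, against 54.5% to 65.9% with other size factors, filters or corrections, which moved the median difference over the same genes by up to 0.119. With single libraries left out it ranged more widely, from 50.7% without the second naive cytoplasm library to 73.6% without the second primed P-body library.

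In the same fit, naive P-bodies were enriched for 3734 genes (21.7%) and depleted of 4502 (26.2%), and primed P-bodies were enriched for 3301 (19.2%) and depleted of 2659 (15.5%). Enrichment was spread more widely in naive cells, with an SD across all tested genes of 1.36 against 1.08. Naive and primed enrichment, which share no library, were related across the 17199 genes with a Spearman correlation of 0.439, and across the 9918 genes of at least 10 CPM with one of 0.604. Of the 2389 genes higher in naive cells, 946 (39.6%) were enriched in both states and 747 (31.3%) were enriched in naive cells without a call in primed cells. A further 361 (15.1%) were depleted in primed cells without a call in naive cells, and 119 (4.98%) were depleted in both. In the primed direction, 1113 of 1960 genes (56.8%) were depleted in naive cells with no call in primed cells. Only 32 (1.63%) were enriched in both states, 382 (19.5%) were enriched in primed cells alone and 99 (5.05%) were depleted in both. Genes that crossed over were few. In all, 175 genes (1.02% of those tested) were enriched in naive and depleted in primed P-bodies, and 266 (1.55%) the reverse.

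**Figure D1:**
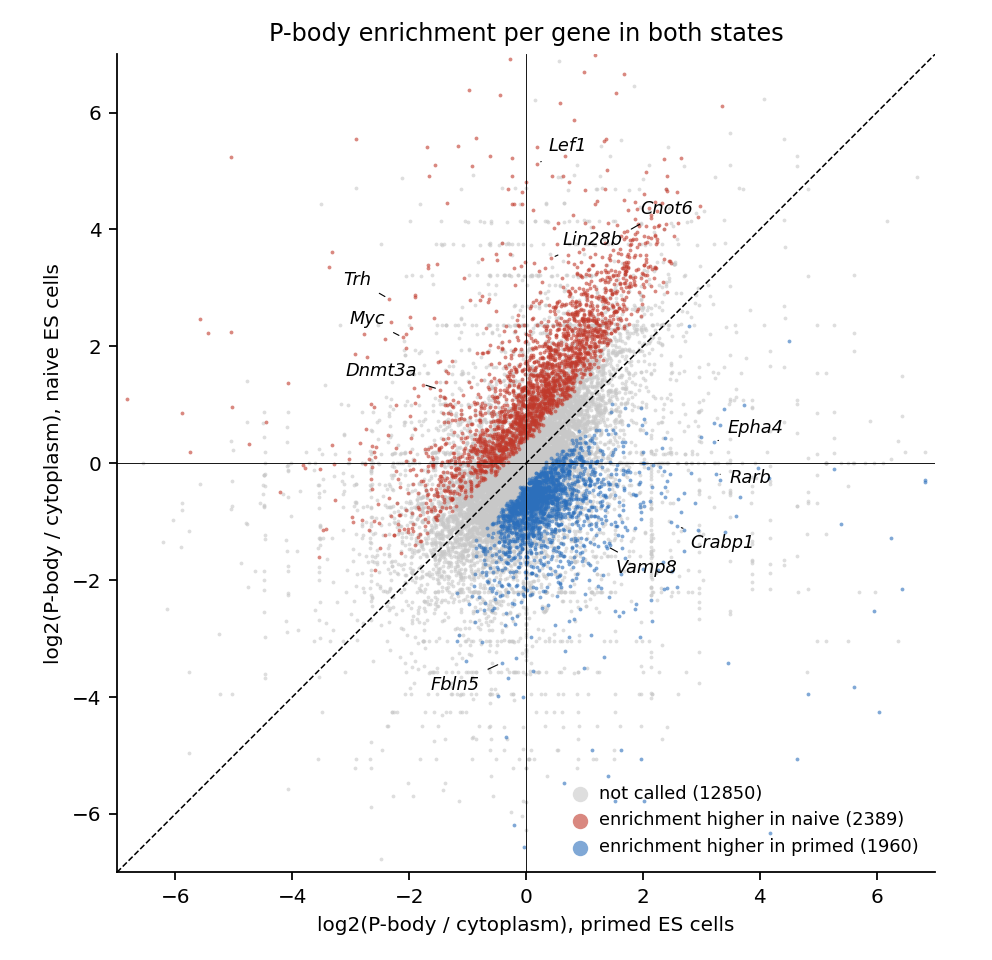
P-body enrichment of each tested gene in naive (vertical axis) and primed ES cells (horizontal axis), as log2 of P-body over cytoplasm. Red points are the 2389 genes called higher in naive, blue points the 1960 called higher in primed and gray points the rest, the dashed line marks equal enrichment, and 7 genes lie outside the axes. The red points have a median of 1.27 in naive and 0.14 in primed cells, and the blue points one of −0.69 and 0.26.

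The difference can come from the P-body libraries, the cytoplasm libraries or both. Between the states, 4318 genes (25.1%) were higher in naive and 3962 (23%) higher in primed P-body libraries, and 4671 (27.2%) were higher in naive and 4580 (26.6%) higher in primed cytoplasm. Of the 2389 genes with higher enrichment in naive cells, 729 (30.5%) were lower in naive than in primed cytoplasm with no call in the P-body libraries, and 616 (25.8%) were higher in naive P-bodies with no call in the cytoplasm. In 453 (19.0%) the fractions moved in opposite directions, and in 362 (15.2%) both fractions were lower in naive cells, the cytoplasm more so. Of the 1960 genes with higher enrichment in primed cells, 795 (40.6%) were higher in naive cytoplasm with no call in the P-body libraries. In 412 of them (21.0%) both fractions were higher in naive cells, and in 403 (20.6%) the P-body libraries alone were higher in primed cells. The median log2 difference of naive over primed was 0.41 in P-bodies and −0.66 in cytoplasm for genes with higher enrichment in naive, and −0.17 and 0.74 for the others. These medians share their libraries with the calls and describe them.

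Genes are named by a rule of size, list membership and separation of the replicate ratios, and all genes named here by the rule with a call but the following kept it in each of 16 alternative analyses. The calls of Dnmt3b, Fgf5, Zfp42, Nanog, Prdm14, Gbx2, Trim28, Syndig1, Rnf157, Lsm14a, Lsm7, Lsm2, Pabpc1, Cnot11, Igf2bp3, Mycn, Hras, Lefty2, Tcf7l1, Dvl3, Tyk2, Rdh11, Kmt2e, Ash1l, Kdm3a, Psma8, Hist1h2an, Sec61b, Col18a1, Lama3, Itgav, Tug1 and Neat1 were lost in at least 1 of them. Outside the rule, and thus after their values were seen, Dppa3, Klf2, Tfcp2l1, Igf2bp2, Ccnd1, Cdk6, Nras, Rictor, Arid3a, Hmga1, Hmga2, Gata3 and Tfap2c were added from the lists, and the alternatives were not read for them. Sizes were ranked among called genes with a mean of at least 10 CPM, at least 10 reads in each group and ratios that did not overlap. Over all tested genes the differences ran from −10.5 to 10.3. In the ranking the largest difference was that of Trh, which encodes the precursor of thyrotropin-releasing hormone (chr6:92242061-92244650, mm10). Trh stood at 30.9 and 34.6 CPM in naive P-bodies, 8.42 and 0.912 CPM in naive cytoplasm, 25.9 and 24.0 CPM in primed P-bodies and 121 and 134 CPM in primed cytoplasm. Naive P-bodies were above naive cytoplasm and primed P-bodies below primed cytoplasm in every pair of libraries. The log2 difference was 5.16 (SE 0.70, adjusted p = 0.00127). The naive cytoplasm libraries stood far apart for Trh, and the call held without either of them.

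Lef1, a transcription factor of the WNT pathway that marks primed cells (chr3:131110471-131224356), was next. Its level was 15.7 and 19.9 CPM in naive P-bodies, 0.337 and 0.664 CPM in naive cytoplasm, 18.8 and 18.4 CPM in primed P-bodies and 14.2 and 18.4 CPM in primed cytoplasm. Only the naive cytoplasm was low, and the other 3 groups overlapped. Its enrichment was 5.12 in naive and 0.19 in primed cells, a log2 difference of 4.93 (SE 0.39, adjusted p = 0.000163). Myc, the growth-promoting transcription factor (chr15:61985391-61990374), had 2.68 and 3.31 CPM in naive P-bodies, 0.253 and 1.08 CPM in naive cytoplasm, 11.6 and 14.0 CPM in primed P-bodies and 49.5 and 61.2 CPM in primed cytoplasm. Primed cytoplasm was highest by far, and Myc was enriched in naive P-bodies and depleted from primed ones, with a log2 difference of 4.26 (SE 0.51, adjusted p = 0.000771). For Lef1 and Myc the naive cytoplasm held few reads, which limits their ratios. Over the alternatives the difference ran from 4.545 to 5.499 for Lef1 and from 3.585 to 5.63 for Myc.

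Gja1, which encodes the gap junction protein connexin 43 (chr10:56377330-56402513), had 41.5 and 44.8 CPM in naive P-bodies, 2.53 and 4.64 CPM in naive cytoplasm, 318 and 338 CPM in primed P-bodies and 468 and 471 CPM in primed cytoplasm. Its primed levels exceeded all naive levels, yet only naive P-bodies were enriched over their cytoplasm, and the log2 difference was 4.10 (SE 0.24, adjusted p = 0.000102). Sulf1, an enzyme that trims sulfate groups from extracellular heparan sulfate (chr1:12692277-12861192), had 78.9 and 85.9 CPM in naive P-bodies, 11.2 and 12.4 CPM in naive cytoplasm, 142 and 139 CPM in primed P-bodies and 252 and 234 CPM in primed cytoplasm. The 4 groups did not overlap, and the log2 difference was 3.59 (SE 0.14, adjusted p = 2.02e-05), with the smallest SE among the 10 largest differences in each direction. Ackr4, an atypical chemokine receptor, differed by 3.64 through its primed depletion of −3.33, since its naive P-body and naive cytoplasm levels overlapped at 4.55 to 7.12 CPM. Kirrel2, a cell adhesion protein of the immunoglobulin family, differed by 3.57 with a primed enrichment of −2.60. The kinases Pak3 and Lrrk2 and the lysophosphatidic acid receptor Lpar4 completed the 10, at 4.18, 3.86 and 4.18. For these 3 the naive cytoplasm held few reads, and without the second naive cytoplasm library the differences were 6.82 for Pak3, 9.05 for Lrrk2 and 7.32 for Lpar4.

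In the opposite direction of the same ranking, 2 genes of retinoic acid response led. Crabp1, which binds retinoic acid in the cytoplasm (chr9:54764748-54773110), had 11.0 and 12.7 CPM in naive P-bodies, 18.1 and 32.0 CPM in naive cytoplasm, 66.9 and 59.5 CPM in primed P-bodies and 11.8 and 9.32 CPM in primed cytoplasm. Primed P-bodies stood alone at the high end, and the log2 difference was −3.66 (SE 0.36, adjusted p = 0.000369). Rarb, a retinoic acid receptor (chr14:16430839-16819156), had 8.87 and 7.43 CPM in naive P-bodies, 6.15 and 12.3 CPM in naive cytoplasm, 24.2 and 24.5 CPM in primed P-bodies and 1.61 and 3.41 CPM in primed cytoplasm. Naive P-bodies and naive cytoplasm overlapped, while primed P-bodies exceeded primed cytoplasm more than in any naive pair, with a log2 difference of −3.43 (SE 0.52, adjusted p = 0.00197). Epha4, an ephrin receptor (chr1:77367185-77515088), had 63.2 and 64.1 CPM in naive P-bodies, 42.0 and 56.9 CPM in naive cytoplasm, 41.2 and 37.8 CPM in primed P-bodies and 4.42 and 4.09 CPM in primed cytoplasm. Only primed cytoplasm was low, and the log2 difference was −2.85 (SE 0.24, adjusted p = 0.000226). Fbln5, an extracellular protein of elastic fibers (chr12:101746565-101819055), was instead set apart by its naive cytoplasm, with 7.01 and 6.89 CPM in naive P-bodies, 58.5 and 90.1 CPM in naive cytoplasm, 1.49 and 3.49 CPM in primed P-bodies and 3.08 and 3.52 CPM in primed cytoplasm. The naive depletion of −3.42 had no counterpart in primed cells, where the groups overlapped, and the difference was −3.0 (SE 0.52, adjusted p = 0.00375). Serping1, the C1 inhibitor of the complement system, was depleted in naive P-bodies (−2.0) and enriched in primed ones (1.07), a difference of −3.07 (SE 0.20, adjusted p = 0.000102). Dkkl1, a secreted relative of the Dickkopf proteins, differed by −3.42, Ntm, a neuronal adhesion protein, by −2.96, and Cabp7, a calcium-binding protein, by −2.96. Syndig1, a synaptic membrane protein, differed by −2.93, but its call was lost without 1 of the naive P-body, 1 of the primed P-body or either of the primed cytoplasm libraries.

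**Figure D2:**
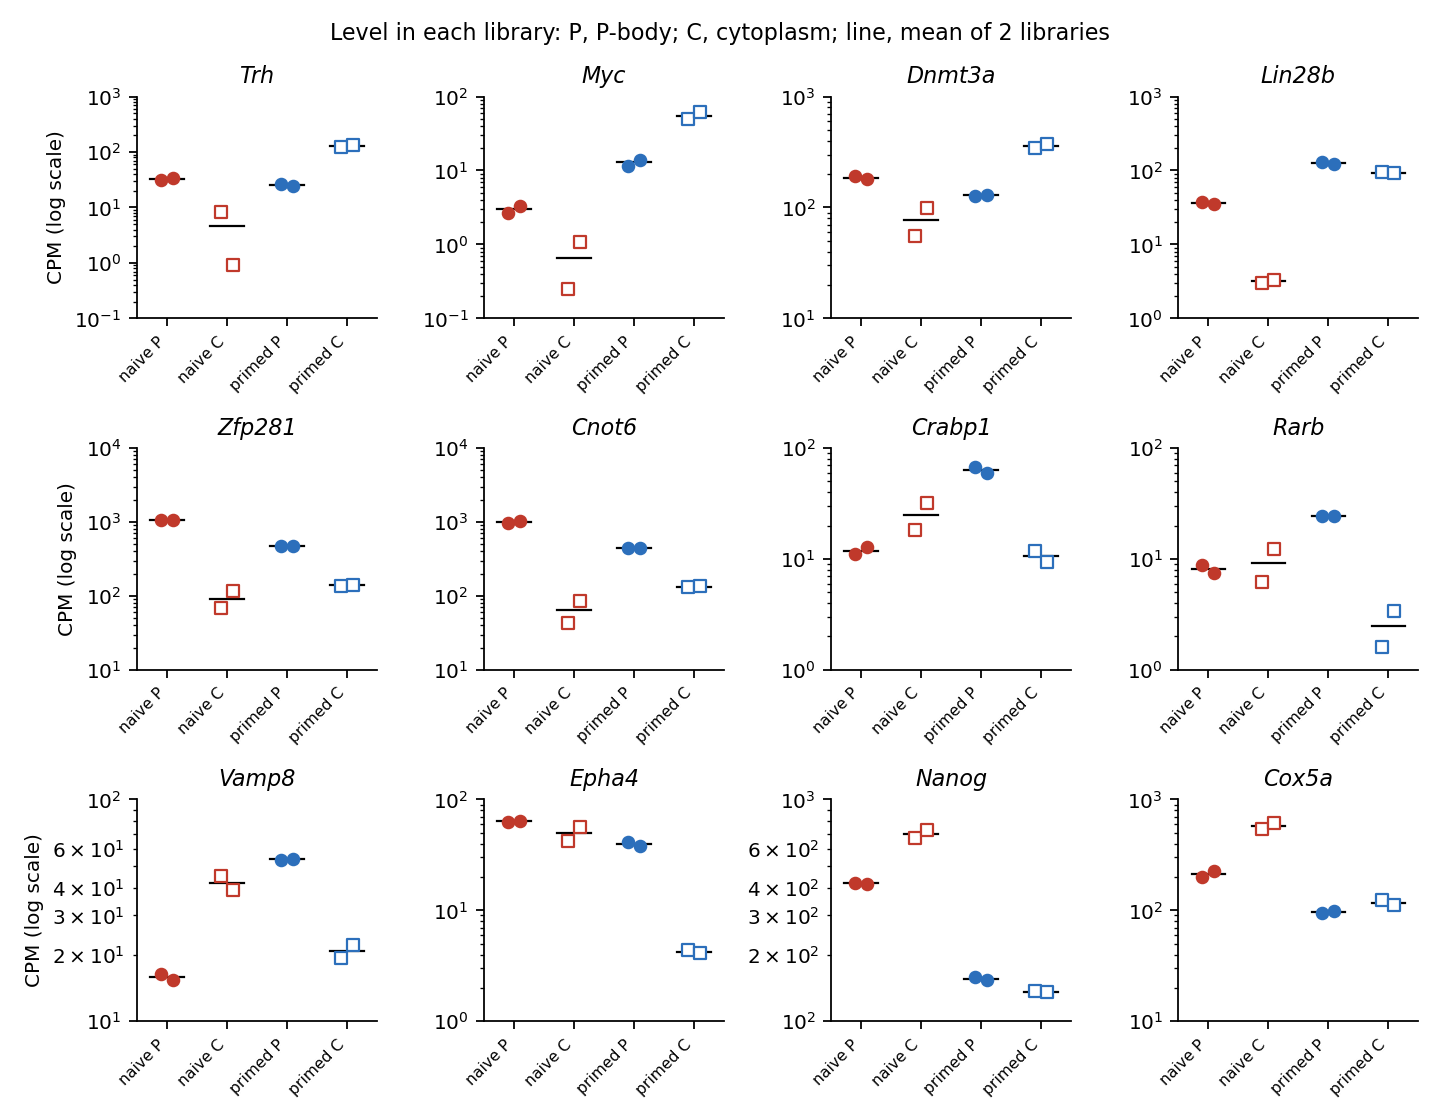
Level of 12 genes in each of the 8 libraries, in CPM on a log scale, with naive libraries in red, primed libraries in blue, P-bodies (P) as filled circles and cytoplasm (C) as open squares; the line is the mean of the 2 libraries. In Trh, Myc and Dnmt3a naive P-bodies lie above naive cytoplasm and primed P-bodies below primed cytoplasm, in Crabp1 and Vamp8 the order is the reverse in both states, and Zfp281 and Cnot6 are enriched in both states with the wider gap in naive cells.

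Among the genes that crossed over, those with the largest smaller enrichment in each direction included Trh, Myc, Slc27a2, Dnmt3a and Slc12a8, and in reverse Vamp8, Rnf157 and Cabp7. Slc27a2, a fatty acid transporter and acyl-CoA synthetase, had 43.3 and 39.9 CPM in naive P-bodies, 12.2 and 12.6 CPM in naive cytoplasm, 41.3 and 42.5 CPM in primed P-bodies and 100.1 and 100.5 CPM in primed cytoplasm. Its P-body levels overlapped between the states while the cytoplasm levels did not, with a difference of 3.0 (SE 0.15, adjusted p = 6.92e-05). Vamp8, a SNARE protein of membrane fusion, had 16.3 and 15.4 CPM in naive P-bodies, 45.4 and 39.1 CPM in naive cytoplasm, 53.4 and 54.0 CPM in primed P-bodies and 19.3 and 22.1 CPM in primed cytoplasm. Naive cytoplasm and primed P-bodies were high and the other groups low, and the difference was −2.79 (SE 0.18, adjusted p = 0.000102). Slc12a8, a solute carrier, crossed over at 2.50 and Rnf157, a ubiquitin ligase, at −2.42, the last with a call lost without 1 naive P-body library.

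The gene lists are given with the share of their tested genes called in each direction, to be read against 13.9% and 11.4% over all tested genes. Single libraries moved most of these counts: over all genes, calls rose to 6633 and 7089 without a naive cytoplasm library and fell to between 2293 and 2913 without any other. Of 23 primed and formative factors, 10 were higher in naive and 3 in primed cells, and the median difference was 1.24, against −0.04 over all tested genes. In cytoplasm 20 of the 23 were lower in naive than in primed cells. The primed and formative shares called were 43.5% and 13%, and with 1 library left out the counts ran from 8 without several libraries to 12 without naive cytoplasm 2 for naive and from 2 without several libraries to 6 without naive cytoplasm 1 for primed cells, and the median from 0.65 without naive cytoplasm 1 to 1.68 without naive cytoplasm 2. Dnmt3a, a de novo DNA methyltransferase (chr12:3806007-3914443), had 191 and 180.4 CPM in naive P-bodies, 55.8 and 99.0 CPM in naive cytoplasm, 128 and 130.0 CPM in primed P-bodies and 345 and 374 CPM in primed cytoplasm. Primed cytoplasm was highest, naive cytoplasm lowest, and the P-body groups were closer to each other, with a difference of 2.74 (SE 0.30, adjusted p = 0.000519). Lin28b, an RNA-binding protein that blocks let-7 maturation (chr10:45376620-45486395), had 37.1 and 35.5 CPM in naive P-bodies, 3.03 and 3.32 CPM in naive cytoplasm, 128 and 123 CPM in primed P-bodies and 95.6 and 91.0 CPM in primed cytoplasm. It was enriched in both states, 11.4-fold in naive and 1.35-fold in primed cells, and the difference was 3.08 (SE 0.16, adjusted p = 6.92e-05). Dnmt3b differed by 1.31 (adjusted p = 0.0157), a call that was lost when single P-body or primed cytoplasm libraries were left out. Fgf5 had 0.309 and 0.179 CPM in naive P-bodies and no read in naive cytoplasm, so no ratio is given for it. The reverse was seen for Meis1, a homeobox factor, which had 3.40 and 2.51 CPM in naive P-bodies, 1.6 and 1.33 CPM in naive cytoplasm, 65.6 and 63.3 CPM in primed P-bodies and 5.63 and 4.09 CPM in primed cytoplasm, so that primed P-bodies were alone at the high end, with a difference of −2.74 (SE 0.35, adjusted p = 0.000993). Sall2 differed by −1.29 (adjusted p = 0.00631). Otx2 was not called, at 0.33 (SE 0.22).

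Of 18 naive pluripotency factors tested, 5 were more enriched in primed cells and 2 in naive cells, with a median difference of −0.01. The naive pluripotency shares called were 11.1% and 27.8%, and with 1 library left out the counts ran from 1 without several libraries to 4 without naive cytoplasm 2 for naive and from 2 without primed P-body 2 or primed cytoplasm 1 to 7 without naive cytoplasm 1 for primed cells, and the median from −0.05 without naive cytoplasm 2 to 0.12 without primed P-body 2. Nanog had 419.8 and 417 CPM in naive P-bodies, 670.0 and 731 CPM in naive cytoplasm, 158 and 154 CPM in primed P-bodies and 137 and 135 CPM in primed cytoplasm. It was depleted from naive P-bodies and not called in primed ones, and its difference of −0.94 (SE 0.11, adjusted p = 0.000665) was lost only when all 20 P-body and cytoplasm libraries shared a fit. Zfp42 (Rex1) had 494 and 497 CPM in naive P-bodies, 477 and 546 CPM in naive cytoplasm, 73.2 and 76.2 CPM in primed P-bodies and 43.8 and 45.5 CPM in primed cytoplasm. Its naive fractions overlapped, its primed P-bodies exceeded primed cytoplasm and its difference was −0.79 (SE 0.13, adjusted p = 0.00259), lost in the same fit of 20 libraries. Prdm14 differed by −1.88, Dppa3 by −0.80 and Klf2 by −0.74. Fgf4, the ligand that naive cells make, was depleted in both states, more so in primed cells, and differed by 1.03 (SE 0.14, adjusted p = 0.00127). Gbx2, the other gene higher in naive, was at 9.54 to 20.6 CPM in naive and 43.0 to 57.4 CPM in primed libraries and so ran against its list, with a difference of 0.66. Klf4 (−0.02, SE 0.28), Esrrb (0.21, SE 0.16) and Tfcp2l1 (−0.00, SE 0.22) were not called although their naive levels lay above all primed levels in both fractions.

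Of 12 core factors of both states, 3 were higher in naive and 1 in primed cells, with a median difference of 0.14. The core factor shares called were 25% and 8.33%, and with 1 library left out the counts ran from 3 without several libraries to 5 without naive cytoplasm 2 for naive and from 0 without several libraries to 4 without naive cytoplasm 1 for primed cells, and the median from −0.12 without naive cytoplasm 1 to 0.64 without naive cytoplasm 2. Zfp281, a zinc finger regulator of the exit from the naive state (chr1:136624901-136630053), had 1059 and 1063 CPM in naive P-bodies, 67.7 and 115 CPM in naive cytoplasm, 469 and 472 CPM in primed P-bodies and 137 and 140.4 CPM in primed cytoplasm. It was enriched in both states, 11.6-fold and 3.39-fold, with a difference of 1.77 (SE 0.27, adjusted p = 0.00212). Lin28a, the partner of Lin28b, had 8.66 and 7.34 CPM in naive P-bodies and 2.1 and 0.249 CPM in naive cytoplasm, with primed levels of 64.6 to 71.4 CPM in both fractions. Its difference of 2.64 (SE 0.55, adjusted p = 0.00817) rested on few naive cytoplasm reads and was 4.82 without the first naive cytoplasm library. The central factors themselves were not called: Pou5f1 (Oct4) was depleted in both states and differed by −0.33 (SE 0.16; 0.01 after GC correction), and Sox2 was enriched in both and differed by 0.51 (SE 0.31). Both moved when a naive cytoplasm library was left out, and each was called only at the larger size. Pou5f1 was at −0.49 without the first and −0.14 without the second. Sox2 was at 0.15 without the first and 0.99 without the second. Trim28, a corepressor, was depleted more in naive cells and differed by −0.64, but by −0.21 without a call after correction for GC content. Of 21 genes of the 2-cell-like state, none was called in edgeR, with a median of 0.34, 1 had an unadjusted p under 0.05 and none was called in DESeq2. The 2-cell-like shares called were 0% and 0%, and with 1 library left out the counts ran from 0 without several libraries to 15 without naive cytoplasm 2 for naive and from 0 without several libraries to 2 without naive cytoplasm 1 for primed cells, and the median from −0.04 without naive cytoplasm 1 to 0.97 without naive cytoplasm 2.

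Among genes for P-body and decapping factors, 8 of 33 were higher in naive and 3 in primed cells, with a median of 0.38. The decapping shares called were 24.2% and 9.09%, and with 1 library left out the counts ran from 7 without naive P-body 1 or naive P-body 2 to 15 without naive cytoplasm 2 for naive and from 1 without several libraries to 6 without naive cytoplasm 1 for primed cells. Ddx6, the helicase required for P-bodies, had 132 and 115 CPM in naive P-bodies, 19.4 and 30.8 CPM in naive cytoplasm, 68.2 and 70.6 CPM in primed P-bodies and 53.6 and 40.2 CPM in primed cytoplasm. The naive fractions were far apart and the primed ones closer, at a difference of 1.73 (SE 0.29, adjusted p = 0.00319). Pum2, a Pumilio repressor (chr12:8674134-8752581), had 209 and 212 CPM in naive P-bodies, 16.2 and 26.6 CPM in naive cytoplasm, 123 and 119.6 CPM in primed P-bodies and 36.5 and 37.4 CPM in primed cytoplasm, enriched 9.83-fold in naive and 3.28-fold in primed cells, with a difference of 1.58 (SE 0.25, adjusted p = 0.00245). Lsm14a, whose tagged protein marked the P-bodies, differed by 0.51, a call lost after GC correction. Whether reads of the construct were counted with those of the gene was not tested. Lsm7 and Lsm2, small subunits of the decapping activator ring, differed by −0.74 and −0.49. Lsm2 lost its call in 12 of the 16 alternatives, among them other size factors. Edc4, a decapping scaffold, was depleted in both states and differed by −0.10 (SE 0.20, no call).

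Of 26 deadenylation genes, 5 were higher in naive and 4 in primed cells, with a median of 0.09. The deadenylation shares called were 19.2% and 15.4%, near those of all genes, and with 1 library left out the counts ran from 2 without naive P-body 1 to 7 without naive cytoplasm 1 for naive and from 0 without several libraries to 6 without naive cytoplasm 2 for primed cells, and the median from 0.08 without naive cytoplasm 2 to 0.26 without primed P-body 2. Among members named by the rule, the largest differences belonged to the paired catalytic subunits Cnot6 and Cnot6l, while the whole list reached down to −2.29. Cnot6 (chr11:49671503-49712723) had 971 and 1029 CPM in naive P-bodies, 42.7 and 85.0 CPM in naive cytoplasm, 441 and 440.4 CPM in primed P-bodies and 130.3 and 135 CPM in primed cytoplasm. Enrichment was 15.7-fold in naive and 3.33-fold in primed cells, a difference of 2.23 (SE 0.34, adjusted p = 0.00201). Cnot6l (chr5:96070333-96164171) had 57.4 and 54.6 CPM in naive P-bodies, 4.46 and 5.39 CPM in naive cytoplasm, 38.5 and 40.3 CPM in primed P-bodies and 13.8 and 15.5 CPM in primed cytoplasm and differed by 2.08 (SE 0.20, adjusted p = 0.000303), or by 1.25 after GC correction. Pabpc1, the main cytoplasmic poly(A)-binding protein, differed by −0.68, a call lost in 3 of the 16 alternatives, each with a single library left out. Cnot11 differed by −0.55, a call lost in 14 of the 16 alternatives.

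Of 23 microRNA processing and Argonaute genes, 10 were higher in naive and 2 in primed cells, with a median of 0.27. The microRNA factor shares called were 43.5% and 8.7%, and with 1 library left out the counts ran from 8 without several libraries to 12 without naive cytoplasm 1 for naive and from 1 without several libraries to 6 without naive cytoplasm 2 for primed cells, and the median from 0.16 without naive cytoplasm 2 to 0.46 without naive cytoplasm 1. Ago2, the slicing Argonaute, had 123 and 120.2 CPM in naive P-bodies, 72.2 and 89.2 CPM in naive cytoplasm, 38.7 and 37.9 CPM in primed P-bodies and 53.0 and 55.9 CPM in primed cytoplasm. It was enriched in naive and depleted in primed P-bodies, by 1.51-fold and 0.703-fold, and differed by 1.10 (SE 0.16, adjusted p = 0.00178). Wtip, a LIM-domain partner of Argonaute, was the strongest exception at −2.72. Of 28 textbook let-7 targets, 15 were higher in naive and 2 in primed cells, with a median of 0.76 and of 0.54 after GC correction, when 14 and 1 were called. In cytoplasm 17 of the 28 were lower and 4 higher in naive than in primed cells, with a median of −0.74. In the P-body libraries 11 were lower and 7 higher in naive cells, with a median of −0.003. The let-7 target shares called were 53.6% and 7.14%, and with 1 library left out the counts ran from 13 without several libraries to 18 without naive cytoplasm 2 for naive and from 0 without several libraries to 3 without naive cytoplasm 1 or naive cytoplasm 2 for primed cells. The targets higher in naive cells included Lin28a, Lin28b and Myc, the insulin-like growth factor mRNA-binding protein Igf2bp2 (1.80), the cyclin Ccnd1 (1.52), its kinase Cdk6 (1.65), the RAS gene Nras (0.77) and the mTORC2 subunit Rictor (1.64). The 2 exceptions were Igf2bp3 (−0.59) and Mycn (−0.53), whose calls were lost in 6 and in 14 of the 16 alternatives. Arid3a (0.10), Hmga1 (0.05) and Hmga2 (−1.63, SE 0.62) were not called.

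**Figure D3:**
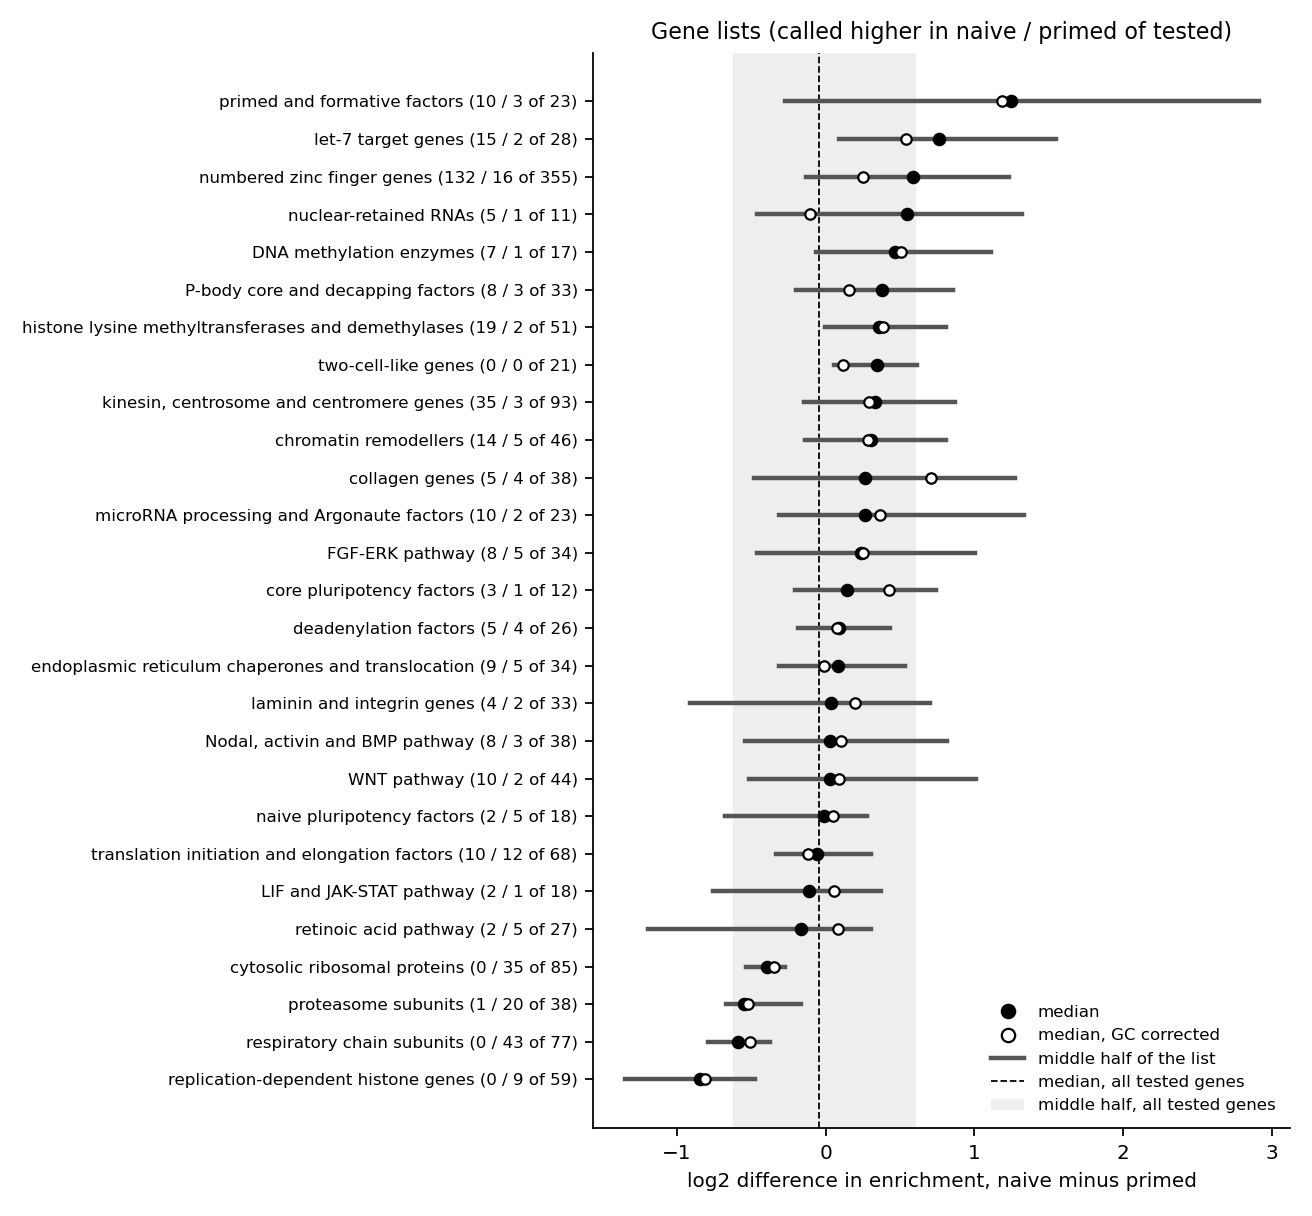
Log2 difference in P-body enrichment, naive minus primed, for 27 gene lists, ordered by median. Filled circles are medians, open circles medians after GC correction, bars the interquartile range of each list, the gray band and dashed line the interquartile range and the median of all 17199 tested genes, and the numbers in brackets the genes called higher in naive and in primed cells of those tested. Primed and formative factors and let-7 targets lie at the top at 1.24 and 0.76, and respiratory chain, proteasome, ribosomal protein and histone genes at the bottom between −0.40 and −0.84.

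In the FGF-ERK pathway 8 of 34 genes were higher in naive and 5 in primed cells (median 0.24). The FGF-ERK shares called were 23.5% and 14.7%, and with 1 library left out the counts ran from 6 without naive P-body 1 to 13 without naive cytoplasm 2 for naive and from 0 without several libraries to 10 without naive cytoplasm 2 for primed cells, and the median from 0.06 without primed cytoplasm 2 to 0.61 without primed cytoplasm 1. The kinase Braf, which acts downstream of RAS, had 87.8 and 103 CPM in naive P-bodies, 20.7 and 26.9 CPM in naive cytoplasm, 224 and 208 CPM in primed P-bodies and 169 and 181 CPM in primed cytoplasm. Naive cytoplasm alone was far below the other groups, and the difference was 1.70 (SE 0.19, adjusted p = 0.000534). Hras was at −0.53, a call lost in 14 of the 16 alternatives. In the Nodal, activin and BMP pathway 8 of 38 were higher in naive and 3 in primed cells (median 0.03). The Nodal, activin and BMP shares called were 21.1% and 7.89%, and with 1 library left out the counts ran from 5 without naive P-body 1 to 13 without naive cytoplasm 1 for naive and from 0 without several libraries to 10 without naive cytoplasm 2 for primed cells, and the median from −0.11 without primed cytoplasm 2 to 0.20 without primed cytoplasm 1. Lefty1, a secreted inhibitor of Nodal, had 158 and 164 CPM in naive P-bodies, 19.7 and 9.71 CPM in naive cytoplasm, 1748 and 1794 CPM in primed P-bodies and 1815 and 1773 CPM in primed cytoplasm. Naive P-bodies exceeded naive cytoplasm while the primed fractions were level, at a difference of 3.47 (SE 0.31, adjusted p = 0.000239). Reads of Lefty1 and its close copy Lefty2 (1.6) may not have been separable.

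In the WNT pathway 10 of 44 were higher in naive and 2 in primed cells (median 0.03). The WNT shares called were 22.7% and 4.55%, and with 1 library left out the counts ran from 9 without several libraries to 12 without naive cytoplasm 1 or naive cytoplasm 2 for naive and from 1 without primed P-body 2 or primed cytoplasm 1 to 9 without naive cytoplasm 2 for primed cells, and the median from 0.06 without primed cytoplasm 1 to 0.17 without primed P-body 2. Besides Lef1, the receptor Fzd7 had 38 and 34.8 CPM in naive P-bodies, 26.7 and 23.5 CPM in naive cytoplasm, 44.1 and 47.8 CPM in primed P-bodies and 104 and 112 CPM in primed cytoplasm and differed by 1.76 (SE 0.16, adjusted p = 0.000256). Tcf7l1, a repressor of the naive network, differed by −1.26 and the adaptor Dvl3 by −0.88. The LIF pathway had 2 of 18 higher in naive and 1 in primed cells (median −0.11). The LIF shares called were 11.1% and 5.56%, and with 1 library left out the counts ran from 2 without several libraries to 5 without naive cytoplasm 1 or naive cytoplasm 2 for naive and from 1 without several libraries to 6 without naive cytoplasm 2 for primed cells, and the median from −0.15 without naive cytoplasm 2 to 0.09 without naive cytoplasm 1. Its shared receptor subunit Il6st had 302.1 and 282 CPM in naive P-bodies, 164 and 149 CPM in naive cytoplasm, 73.4 and 77.8 CPM in primed P-bodies and 100.3 and 104 CPM in primed cytoplasm, enriched in naive and depleted in primed P-bodies, with a difference of 1.33 (SE 0.13, adjusted p = 0.000291), and the feedback inhibitor Socs2 differed by 0.98. The kinase Tyk2 differed by −0.91. Of 27 retinoic acid pathway genes, 2 were higher in naive and 5 in primed cells (median −0.17, 0.08 after GC correction). The retinoic acid shares called were 7.41% and 18.5%, and with 1 library left out the counts ran from 1 without naive P-body 1 to 6 without naive cytoplasm 2 for naive and from 2 without several libraries to 8 without naive cytoplasm 1 for primed cells, and the median from −0.43 without primed cytoplasm 2 to −0.01 without primed P-body 2. The corepressor Nrip1 (1.6) and the retinol dehydrogenase Rdh11 (1.25) stood against Crabp1 and Rarb.

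Of 51 histone lysine methyltransferases and demethylases, 19 were higher in naive and 2 in primed cells, with a median of 0.36. The histone lysine enzyme shares called were 37.3% and 3.92%, and with 1 library left out the counts ran from 11 without naive P-body 1 to 24 without naive cytoplasm 1 for naive and from 1 without several libraries to 6 without naive cytoplasm 2 for primed cells. Among members named by the rule Ash1l (1.86) and Kmt2e (1.81) led, while the whole list reached 4.79. Ash1l lost its call when P-body libraries were left out, and Kmt2e when P-body or primed cytoplasm libraries were. Kdm2b (−0.99) and Kdm3a (−0.35) were the exceptions, and Kdm3a lost its call in 12 of the 16 alternatives. Of 46 chromatin remodelers, 14 were higher in naive and 5 in primed cells, with a median of 0.31. The remodeler shares called were 30.4% and 10.9%, and with 1 library left out the counts ran from 10 without naive P-body 1 to 23 without naive cytoplasm 1 for naive and from 0 without several libraries to 10 without naive cytoplasm 2 for primed cells, and the median from 0.20 without naive cytoplasm 2 to 0.46 without primed P-body 2. Chd2, a remodeling ATPase (chr7:73426638-73541830), had 504 and 504 CPM in naive P-bodies, 69.0 and 93.3 CPM in naive cytoplasm, 105 and 101 CPM in primed P-bodies and 55.9 and 51.7 CPM in primed cytoplasm. It was enriched in both states and more so in naive cells, by 1.70 (SE 0.19, adjusted p = 0.000528). Its relative Chd9 had 72.1 and 64.7 CPM in naive P-bodies, 16.2 and 19.0 CPM in naive cytoplasm, 219.6 and 236 CPM in primed P-bodies and 244 and 239 CPM in primed cytoplasm and differed by 2.04 (SE 0.15, adjusted p = 0.000141). Of 17 DNA methylation genes, 7 were higher in naive and 1 in primed cells, with a median of 0.47. The DNA methylation shares called were 41.2% and 5.88%, and with 1 library left out the counts ran from 4 without naive P-body 2 or primed cytoplasm 2 to 10 without naive cytoplasm 2 for naive and from 1 without several libraries to 2 without naive cytoplasm 1 or naive cytoplasm 2 for primed cells, and the median from 0.35 without naive P-body 1 to 0.72 without naive cytoplasm 2. Tet2, a dioxygenase that oxidizes 5-methylcytosine, was enriched in both states, 4.99-fold and 3.61-fold, and was not called at 0.47 (SE 0.30). Without the second naive cytoplasm library it was called at 0.92, and without the first it was at 0.13 with no call.

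Numbered zinc finger genes, most of which encode KRAB-type repressors, formed the broadest group: 132 of 355 were higher in naive and 16 in primed cells, with a median of 0.59. The zinc finger shares called were 37.2% and 4.51%, and with 1 library left out the counts ran from 78 without naive P-body 1 to 179 without naive cytoplasm 2 for naive and from 7 without primed P-body 1 or primed P-body 2 to 31 without naive cytoplasm 1 or naive cytoplasm 2 for primed cells, and the fit of 20 libraries called 10 higher in primed cells. Their enrichment was high in both states, with medians of 1.53 and 0.97. Zfp871 had 962 and 967 CPM in naive P-bodies, 28.7 and 66.9 CPM in naive cytoplasm, 379.6 and 380.5 CPM in primed P-bodies and 118 and 109.5 CPM in primed cytoplasm. It was enriched 20.2-fold in naive and 3.34-fold in primed cells, and differed by 2.59 (SE 0.40, adjusted p = 0.00229). Zfp760 differed by 2.68. The median of the list fell to 0.25 after GC correction, with 87 and 19 calls, and the median GC content of its transcripts was 44.3% against 50.1% for all genes. Members of this family resemble each other, and the sharing of reads between copies was not stated. Of the kinesin, centrosome and centromere genes, 35 of 93 were higher in naive and 3 in primed cells, with a median of 0.33. The kinesin and centrosome shares called were 37.6% and 3.23%, and with 1 library left out the counts ran from 21 without naive P-body 1 or naive P-body 2 to 43 without naive cytoplasm 2 for naive and from 1 without several libraries to 11 without naive cytoplasm 1 for primed cells. Kif20b, a mitotic kinesin (chr19:34922361-34975745), had 2171 and 2071 CPM in naive P-bodies, 81.8 and 163 CPM in naive cytoplasm, 704 and 668 CPM in primed P-bodies and 261 and 255 CPM in primed cytoplasm, and differed by 2.70 (SE 0.34, adjusted p = 0.000951). Cep112 differed by 1.85, and Cenpw by −1.06. Polk, a DNA polymerase for damaged templates that belongs to none of the lists, had 973 and 982 CPM in naive P-bodies, 17.3 and 76.9 CPM in naive cytoplasm, 656 and 666 CPM in primed P-bodies and 124 and 119 CPM in primed cytoplasm. It was enriched in both states and was not called, at 1.93 (SE 0.66, adjusted p = 0.0622), with naive cytoplasm libraries far apart, and 6 alternatives called it.

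Of 85 cytosolic ribosomal protein genes, 35 were higher in primed and none in naive cells by edgeR, with a median of −0.40. By an unadjusted p and by DESeq2 the latter count was 0 as well. The ribosomal protein shares called were 0% and 41.2%, and with 1 library left out the counts were 0 throughout for naive and from 4 without primed P-body 2 to 75 without naive cytoplasm 1 for primed cells, and the median from −0.49 without naive cytoplasm 1 to −0.26 without primed P-body 1, and the fit of 20 libraries called 5 higher in primed cells. Their naive depletion had a median of −0.54, with 71 called depleted, and their primed depletion one of −0.15, with 17 called. Rps4l had 567 and 583 CPM in naive P-bodies, 1126 and 987 CPM in naive cytoplasm, 384 and 382 CPM in primed P-bodies and 349 and 368 CPM in primed cytoplasm and differed by −0.97 (SE 0.12, adjusted p = 0.000771), or by −0.55 after GC correction. Of 77 nuclear-encoded respiratory chain genes, 43 were higher in primed and none in naive cells by edgeR (1 by an unadjusted p and 1 by DESeq2), with medians of −0.63 for naive and −0.04 for primed enrichment. The respiratory chain shares called were 0% and 55.8%, and with 1 library left out the counts ran from 0 without several libraries to 2 without naive cytoplasm 1 for naive and from 14 without primed P-body 1 to 61 without naive cytoplasm 1 for primed cells, and the fit of 20 libraries called 26 higher in primed cells. Cox5a, a subunit of cytochrome c oxidase (chr9:57521274-57532426), had 201 and 225 CPM in naive P-bodies, 537 and 608 CPM in naive cytoplasm, 94.4 and 99.7 CPM in primed P-bodies and 124 and 111 CPM in primed cytoplasm. Naive cytoplasm was high and the primed fractions lay close to each other, at a difference of −1.15 (SE 0.15, adjusted p = 0.000929). Cox6b1 differed by −1.20. Of 38 proteasome genes, 20 were higher in primed cells and only Psma8 (0.81, lost after GC correction) in naive cells. The proteasome shares called were 2.63% and 52.6%, and with 1 library left out the counts ran from 0 without several libraries to 4 without naive cytoplasm 2 for naive and from 8 without primed P-body 1 or primed P-body 2 to 28 without naive cytoplasm 2 for primed cells. Their median enrichment was −0.21 in naive and 0.24 in primed cells, with 16 and 1 genes called depleted and 4 and 17 called enriched. Psmc3, an ATPase of the regulatory particle, had 284 and 296 CPM in naive P-bodies, 418 and 424 CPM in naive cytoplasm, 260.4 and 270.2 CPM in primed P-bodies and 198 and 204 CPM in primed cytoplasm and differed by −0.93 (SE 0.11, adjusted p = 0.000603).

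Among translation factors, 10 of 68 were higher in naive and 12 in primed cells (median −0.06). The translation factor shares called were 14.7% and 17.6%, near those of all genes, and with 1 library left out the counts ran from 6 without naive P-body 2 to 22 without naive cytoplasm 2 for naive and from 1 without primed P-body 1 to 25 without naive cytoplasm 1 or naive cytoplasm 2 for primed cells, and the median from −0.12 without primed cytoplasm 2 to 0.09 without primed cytoplasm 1, and the fit of 20 libraries called 5 higher in primed cells. Eif3a, the scaffold of the initiation factor eIF3, had 1145 and 1173 CPM in naive P-bodies, 439 and 367 CPM in naive cytoplasm, 626 and 615 CPM in primed P-bodies and 492 and 467 CPM in primed cytoplasm and differed by 1.15 (SE 0.13, adjusted p = 0.000613), and the stress kinase Eif2ak2 (PKR) differed by 1.65. Eif4ebp1, an inhibitor of cap-dependent translation, had 472 and 472 CPM in naive P-bodies, 1588 and 1133 CPM in naive cytoplasm, 256 and 239.5 CPM in primed P-bodies and 328 and 291 CPM in primed cytoplasm, depleted more strongly in naive cells, and differed by −1.21 (SE 0.20, adjusted p = 0.00311). Of 59 replication-dependent histone genes, 9 were higher in primed and none in naive cells by edgeR, by an unadjusted p or by DESeq2, with a median of −0.84. The histone shares called were 0% and 15.3%, and with 1 library left out the counts were 0 throughout for naive and from 3 without several libraries to 29 without naive cytoplasm 1 for primed cells, and the median from −1.15 without naive cytoplasm 1 to −0.35 without naive cytoplasm 2, and the fit of 20 libraries called 5 higher in primed cells. Most of these mRNAs lack a poly(A) tail, the libraries were primed on poly(A), and the copies resemble each other, so their values are uncertain. H2ac10 differed by −2.13 and Hist1h2an by −2.48, the latter with a call lost after GC correction.

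Of 34 endoplasmic reticulum genes, 9 were higher in naive and 5 in primed cells (median 0.08). The endoplasmic reticulum shares called were 26.5% and 14.7%, and with 1 library left out the counts ran from 6 without naive P-body 1 or naive P-body 2 to 15 without naive cytoplasm 1 for naive and from 2 without several libraries to 8 without naive cytoplasm 1 for primed cells, and the median from 0.00 without naive cytoplasm 2 to 0.22 without primed P-body 1. The chaperone Hsp90b1 was called at 1.13, or 0.65 after GC correction, and the translocon-associated Ssr1 at 0.92, while Sdf2l1 was at −1.10 and Sec61b at −0.93. Of 38 collagen genes, 5 were higher in naive and 4 in primed cells (median 0.27), and of 33 laminin and integrin genes 4 and 2 (median 0.04). The collagen shares called were 13.2% and 10.5%, near those of all genes, and with 1 library left out the counts ran from 3 without naive P-body 1 to 6 without naive cytoplasm 1 or naive cytoplasm 2 for naive and from 1 without naive P-body 1 or primed P-body 1 to 5 without naive cytoplasm 1 or naive cytoplasm 2 for primed cells, and the median from −0.06 without naive cytoplasm 2 to 0.68 without naive cytoplasm 1. The laminin and integrin shares called were 12.1% and 6.06%, and with 1 library left out the counts ran from 2 without naive P-body 1 or naive P-body 2 to 10 without naive cytoplasm 2 for naive and from 1 without several libraries to 7 without naive cytoplasm 2 for primed cells, and the median from −0.21 without naive cytoplasm 2 to 0.32 without primed P-body 2. Col4a1, a basement membrane collagen and primitive endoderm marker, was depleted in both states and less so in naive cells, by 0.85. Col18a1 differed by 0.92, Lama3 by 1.19, Itgav by 1.01 and Itga3 by −1.04. Of 11 nuclear-retained RNAs, 5 were higher in naive and 1 in primed cells (median 0.55, −0.11 after GC correction). The nuclear-retained RNA shares called were 45.5% and 9.09%, and with 1 library left out the counts ran from 3 without several libraries to 6 without naive cytoplasm 1 for naive and from 0 without several libraries to 2 without naive cytoplasm 2 for primed cells. Malat1, a noncoding RNA of nuclear speckles, had 564 and 548 CPM in naive P-bodies, 167 and 250.4 CPM in naive cytoplasm, 513 and 465 CPM in primed P-bodies and 847 and 638 CPM in primed cytoplasm. It was enriched in naive and depleted in primed P-bodies, with a difference of 2.01 (SE 0.26, adjusted p = 0.00104). Tug1 differed by 0.83 and Neat1 by −1.12. After GC correction Tug1 was at −0.0034. The part of nuclear RNA in the difference of other genes was not tested.

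The cell type marker lists themselves were read in the same way. Of 8 naive markers, none was higher in naive cells by edgeR, by an unadjusted p or by DESeq2 and 4 were higher in primed cells (median −0.38), and of 8 primed markers 3 were higher in naive and 1 in primed cells (median 0.79). Of 11 primitive endoderm markers tested, 3 were higher in naive and 1 in primed cells, and 7 were called depleted from primed P-bodies. Of 5 mesoderm and 6 neural markers 1 each was higher in naive cells, of 6 fibroblast markers none was called by edgeR or DESeq2 and 2 had an unadjusted p under 0.05, and of 6 trophectoderm markers Gata3 (−2.99) and Tfap2c (−0.92) were higher in primed cells. With 1 library left out, no marker list had more than 4 calls in a direction.

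The sequence composition of the transcripts went with the difference. GC content of the longest annotated transcript was available for 16776 genes (97.5%) and was related to the difference with a Spearman correlation of −0.344 across genes, against −0.566 for naive and −0.358 for primed enrichment. Genes share libraries and base composition, so these are descriptions without a p-value. In the quintile of genes with the lowest GC content (29.6% to 44.1%), 34.0% were higher in naive and 3.46% in primed cells. In the quintile with the highest (55.8% to 82.9%), the shares were 3.28% and 19.0%. The correlation was near that value for GC in the coding sequence (−0.34) and at the wobble position of codons (−0.335), smaller in the 3′ UTR (−0.299) and close to 0 in the 5′ UTR (−0.0492).

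Length went with it as well. The longest quintile of transcripts (at least 5030 bases) held 29.5% called for naive and 4.38% called for primed cells, against 3.58% and 18.3% in the shortest quintile (up to 1750 bases). The correlation of transcript length with the difference was 0.235, yet with primed enrichment alone it was 0.00315, and coding length was related negatively to primed enrichment (−0.119) and positively to the difference (0.205). Read-weighted GC content also differed between fractions within each library pair, from 48.05% and 48.08% in naive P-bodies to 50.79% and 50.5% in naive cytoplasm, and from 48.55% and 48.65% to 49.77% and 49.91% in primed cells. After removal of a smooth GC trend from every library, 2012 genes were called higher in naive and 1680 in primed cells. The part of library composition in the difference was not tested beyond this.

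**Figure D4:**
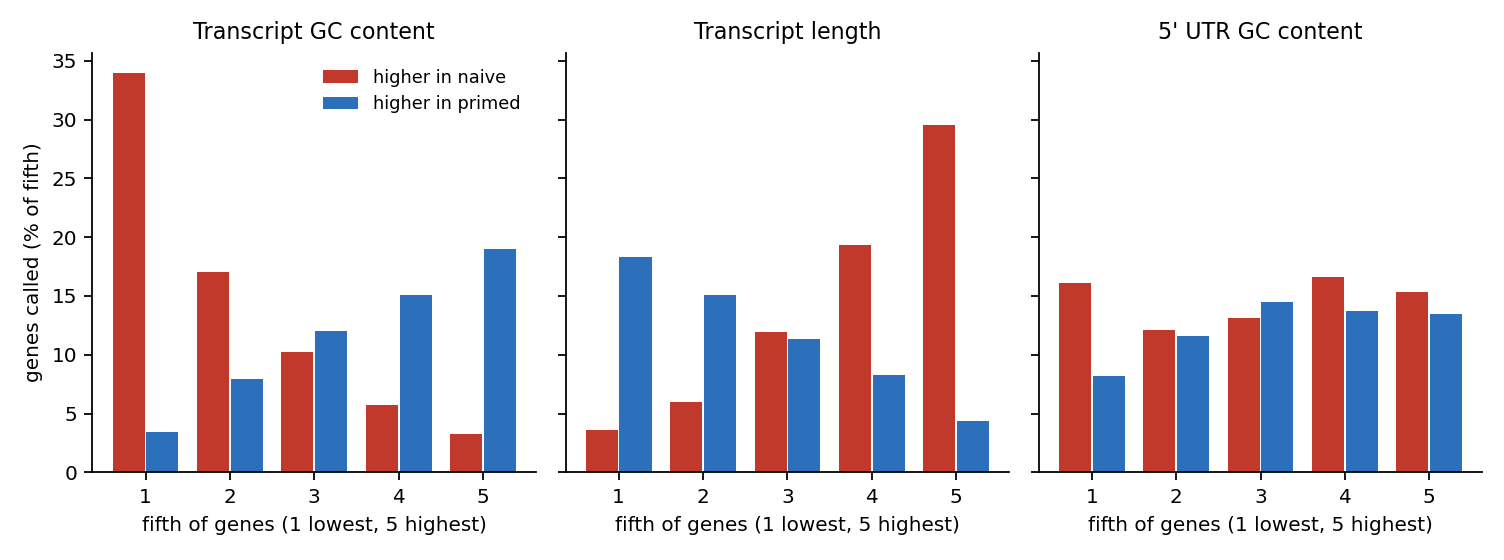
Share of genes called higher in naive (red) and in primed cells (blue) in each quintile of tested genes, ordered from low to high by GC content of the longest transcript (left), its length (middle) and GC content of the 5′ UTR (right). The red bars fall from 34.0% to 3.28% with transcript GC and rise from 3.58% to 29.5% with length, the blue bars run the other way, and neither has a steady course over 5′ UTR GC.

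Matches to microRNA seeds and to RNA-binding protein motifs were then sought in the 3′ UTR of the longest coding transcript of 15358 genes (89.3%), on the transcript strand. The microRNAs shown are those whose seeds were searched: let-7, which LIN28 proteins hold back in ES cells, miR-290 and miR-302 and miR-17, families abundant in ES cells, and miR-300 and miR-381, which the study examined. Mature sequences are from RefSeq on mm10, 5′ to 3′, with the seed (bases 2 to 8) in capitals.
mmu-let-7a-5p: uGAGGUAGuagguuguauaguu
mmu-miR-291a-3p: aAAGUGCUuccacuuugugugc
mmu-miR-294-3p: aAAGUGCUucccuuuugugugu
mmu-miR-17-5p: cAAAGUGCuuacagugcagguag
mmu-miR-300-3p: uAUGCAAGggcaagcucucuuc
mmu-miR-381-3p: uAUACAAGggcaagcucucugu
These lie at chr13:48538239-48538260 on the minus strand, chr7:3218968-3218989, chr7:3220691-3220712, chr14:115043684-115043706, chr12:109724363-109724384 and chr12:109726870-109726891, the last 5 on the plus strand. miR-291a-3p and miR-294-3p share a seed, and miR-98-5p, let-7b-5p and let-7g-5p share that of let-7a-5p. The sequences searched were CTACCTC for let-7, AGCACTT for miR-290 and miR-302, GCACTTT for miR-17, CTTGCAT for miR-300 and CTTGTAT for miR-381, of which those for miR-290 and miR-302 and for miR-17 share the letters GCACTT. The AU-rich element was TATTTAT and the Pumilio motif TGTANATA. A match is a description of the letters in the 3′ UTR and not evidence of binding.

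Genes with a match were more often higher in naive cells for each of the 7 motifs. The let-7 match was held by 10.4% of the 3′ UTRs, and 19.4% of genes with it were higher in naive cells against 14.1% of those without. For miR-290 and miR-302 (16.7% of 3′ UTRs) the shares were 24.4% and 12.7%, for miR-17 (13.7%) 23.8% and 13.2%, for miR-300 (9.79%) 24.5% and 13.6%, and for miR-381 (12.4%) 26.3% and 13.0%. The AU-rich element (29.0%) had 23.7% and 11.0%, and the Pumilio motif (25.1%) 26.7% and 10.7%. A long 3′ UTR holds more matches by its length alone, with a median of 2350 bases with and 1020 bases without a let-7 match, so the shares were also taken within quintiles of 3′ UTR length. There the let-7 excess was not seen: genes with the match had the larger share in 1 of 5 quintiles, and in the longest quintile the shares were 27.7% and 28.5%. The Pumilio motif and the AU-rich element kept the larger share in all 5 length quintiles and all 5 quintiles of 3′ UTR GC content. In the longest quintile the shares were 35.9% and 20.3% for Pumilio and 32.8% and 22% for the AU-rich element. The miR-381 match kept it in 5 length and 4 GC quintiles, miR-290 and miR-302 in 4 and 5, miR-17 in 3 and 5 and miR-300 in 2 and 4. No test was made of these shares. The splits by length and by GC content were made 1 at a time, so neither held the other fixed. In the lowest GC quintile the median 3′ UTR had 1990 bases with and 576 without the AU-rich element. For the Pumilio motif these were 1990 and 602 bases.

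**Figure D5:**
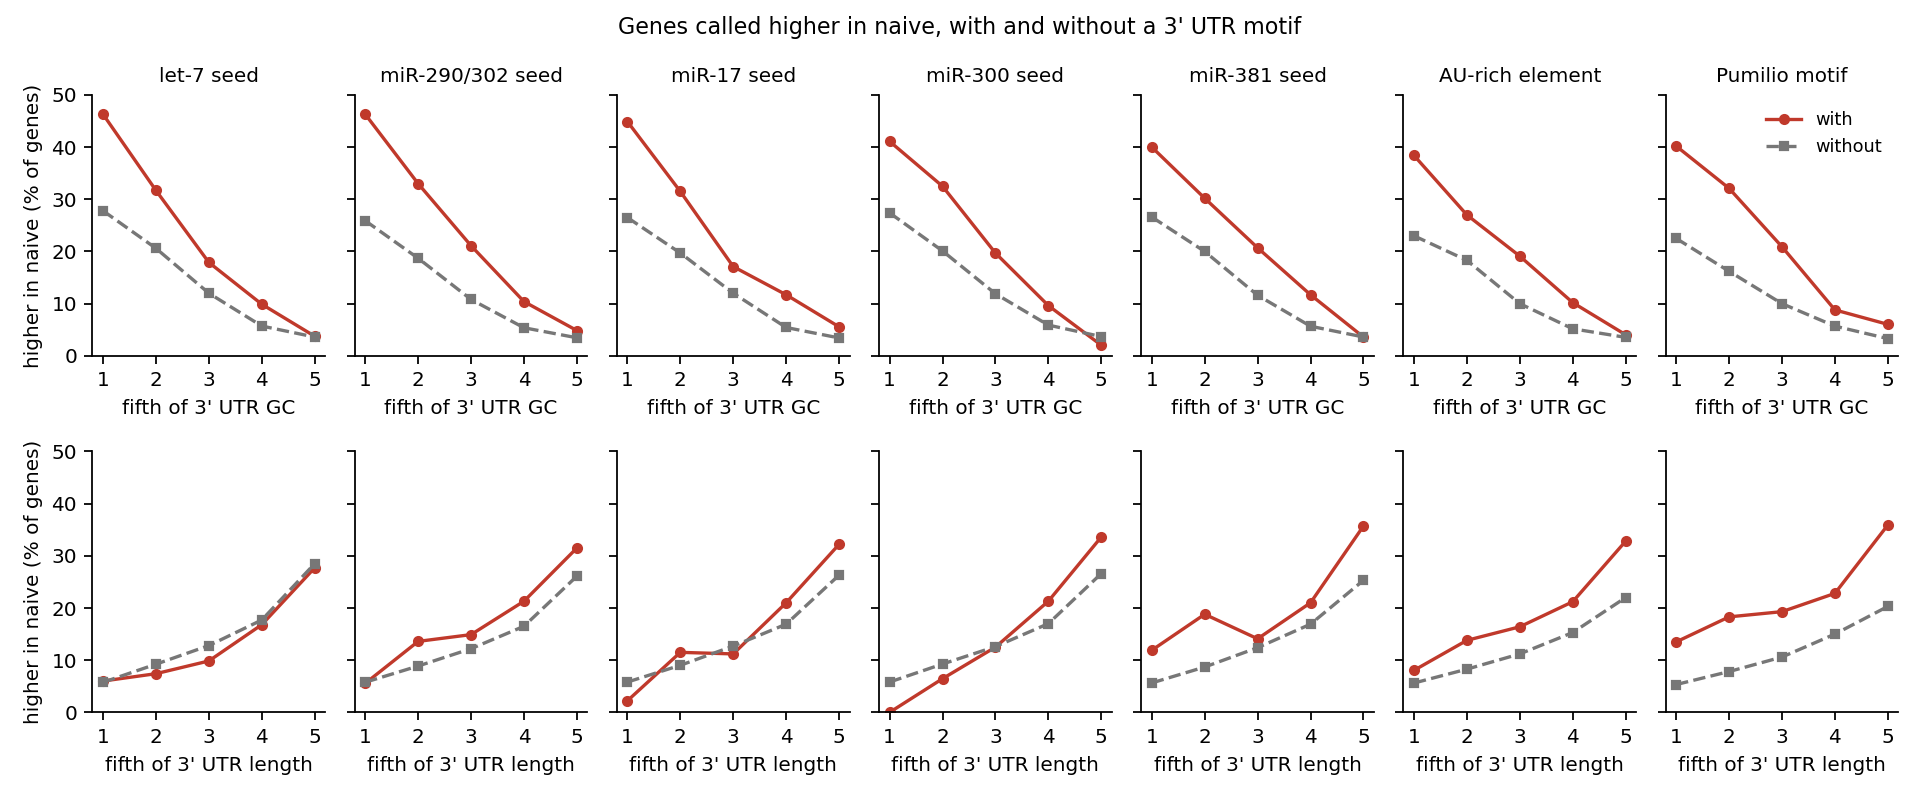
Share of genes called higher in naive cells among genes with (red, solid) and without (gray, dashed) a match in the 3′ UTR, within quintiles of 3′ UTR GC content (upper row) and length (lower row), for 5 microRNA seeds and 2 motifs. In the upper row the share with a match is the larger in the 4 quintiles of lower GC for each motif, whereas in the lower row the let-7 lines lie close together and the Pumilio and AU-rich element lines stay apart in every quintile.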

How the data were processed

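Naive and primed mouse ES cells were compared in P-body and cytoplasm libraries, 2 of each, built with oligo-dT primed SMART-Seq v4 and Nextera XT. The authors aligned reads with HISAT2 to mm10 and counted refGene exons with featureCounts, per the methods and the submitters' processing notes. The deposited values are estimated counts: 17.6% to 20.9% of the values of a library were not whole, and how a shared read was divided is not stated, so genes with near copies (zinc fingers, histones, ribosomal proteins, Lefty1 and Lefty2) are uncertain. Tables of the authors' DESeq2 comparisons (fold changes and p-values) and 2 salmon tables were not used here.

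Counts were rounded, and genes with at least 10 reads over the 8 libraries were fitted with edgeR 4.0.16 in R 4.3.3 (TMM, quasi-likelihood, two-sided, 1 mean for each of 4 groups, 4 residual degrees of freedom), with Benjamini-Hochberg adjustment over all tested genes and a threshold of 0.05. The SE was derived from the test statistic. P-body and cytoplasm contrasts within a state, and state contrasts within a fraction, come from the same fit and share libraries with the difference. Members and lists were chosen with earlier results of these data known.

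Named genes were the 10 largest called differences in each direction (mean of at least 10 CPM, at least 10 reads in each group, ratios of the states not overlapping), up to 2 in each direction per list under the same conditions, a fixed set, and up to 5 crossing over in each direction; some of these are not reported here. Transcript GC content and length came from the longest GENCODE M21 transcript of a gene. Values of the UTRs and coding sequence, and the motifs, came from its longest coding transcript. The gene entries of the same annotation gave the coordinates (mm10, 1-based). Alternatives were other size factors, DESeq2 1.42.0, other filters, a replicate block, GC correction with mgcv 1.9.3, a fit of 20 libraries and leaving out each library. The fit of 20 joined these 8 with P-body and cytoplasm libraries of fibroblasts and of day 3 reprogramming, without the Ago2 knockout libraries. Figures used Python 3.11.15, pandas 2.3.3 and matplotlib 3.10.9.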

Additional observations from a re-analysis of the deposited data

Results flagged for a closer look

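In the genes given here the naive and primed P-body effects pointed in opposite directions, each called on its own, and the interaction term of edgeR called their difference. Enriched in naive and depleted in primed P-bodies were Trh (log2 difference 5.16), Myc (4.26), Slc27a2 (3.0), Dnmt3a (2.74) and Slc12a8 (2.50). Depleted in naive and enriched in primed P-bodies were Cabp7 (−2.96), Vamp8 (−2.79) and Rnf157 (−2.42). They are among the genes with the largest smaller effect among the 175 and 266 genes that crossed over, so their size follows from how they were chosen.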

How the results depend on the processing

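The number of genes called different was 4349 and ranged from 2293 to 7089 when single libraries were left out, with 1452 to 3594 higher in naive and 677 to 3495 higher in primed cells. It was 6633 and 7089 without the first and the second naive cytoplasm library, 2293 and 2424 without a naive P-body, 2528 and 2560 without a primed P-body and 2913 and 2879 without a primed cytoplasm library. The library left alone in its group was then assumed to vary like the others. Primed enrichment was called for 3392 to 8515 genes (5960 with all libraries), naive enrichment for 5735 to 9727 (8236), the state contrast in P-bodies for 5718 to 10614 (8280) and in cytoplasm for 7063 to 10523 (9251). Calls higher in naive and in primed cells were 2671 and 1589 with DESeq2 size factors and 2461 and 1413 with DESeq2. They were 2857 and 1525 with filterByExpr and 2836 and 1467 with no filter. The fit of 20 libraries, with fibroblast and reprogramming libraries added, gave 2422 and 1271, and GC correction 2012 and 1680. The cause of these shifts was not tested. The methods keep sorted P-bodies beside aliquots of the matching cytoplasm, but the labels do not say whether replicate numbers mark such pairs. Same-numbered deviations had a correlation of −0.0556 in naive and 0.0759 in primed cells. Each comes from a single replicate difference and cannot settle this. With a replicate block 2093 and 1562 genes were called, 3655 in all, and 1704 and 1374 with GC correction as well. Of the 113 named genes with a call, 1 changed sign in an alternative, Tug1, which was at −0.0034 under GC correction. Few reads in naive cytoplasm limit the ratios of Pak3, Lrrk2 and Lpar4, and likewise those of Lef1, Myc and Lin28a.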
